A study of Mus musculus with 16 samples.

Results

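Retinal microglia of mice aged 18 months were compared with those of mice aged 3 months, to ask how these cells differ late in adult life. The comparison took all 8 arrays whose titles name these ages, of 16 arrays in the study, with 4 biological replicates at 18 months and 4 at 3 months. All mice were wild-type C57BL/6, and the labels name no treatment. Flow cytometry on CD11b gave the cells, and this integrin chain is also found on monocytes, neutrophils and natural killer cells. The other ages of the study, 12 and 24 months, also had 4 arrays each. The labels do not say how many animals gave a replicate, so the p-values reflect the spread between samples, which may be technical.

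Each array measured 16755 features, most of them genes, as log2 levels from an Affymetrix Mouse Exon 1.0 ST array, so that a difference of 1 is a 2-fold change of the signal. The RNA was amplified from under 5 ng before hybridisation, per the labels. Changes are 18 months minus 3 months. "Rose" and "fell" are used for features with an adjusted p under 0.05 in limma, adjusted over all features.

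Microglia are the resident macrophages of the retina. They survey the synaptic layers with motile processes, clear debris by phagocytosis, and are known to take up fragments of photoreceptor outer segments. They sit among rods, the light-sensing neurons that make up most retinal cells, and Müller glia, the radial support cells that recycle glutamate and buffer potassium and water. Marker genes of these neighbours were measured on the same arrays and are given beside the microglial genes, and their part in the microglial values was not tested. In bulk samples, fewer cells of a type and less RNA per cell cannot be told apart.

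Arrays of each age differed among themselves before any comparison was made. A list of 44 microglia identity genes had mean levels of 8.89, 9.20, 10.87 and 10.58 on replicates 1 to 4 at 18 months and of 10.77, 10.01, 10.99 and 11.08 at 3 months. A list of 46 rod genes had mean levels of 10.09, 10.35, 8.98 and 9.60 at 18 months and of 8.94, 9.70, 7.53 and 7.22 at 3 months. At 18 months, replicates 1 and 2 were thus lowest in microglia genes and highest in rod genes, and at 3 months replicates 3 and 4 were lowest in rod genes. Replicates 1 and 2 at 18 months were also the most alike pair of the study, with a rank correlation across features of 0.990 against at most 0.973 for any other pair. They were kept as 2 arrays, and results are also given with their mean as 1 sample. The 18-month arrays carried the running numbers 9, 10, 12 and 14, and the 3-month arrays 4, 5, 15 and 16. The labels do not say what this number means.

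**Figure D1:**
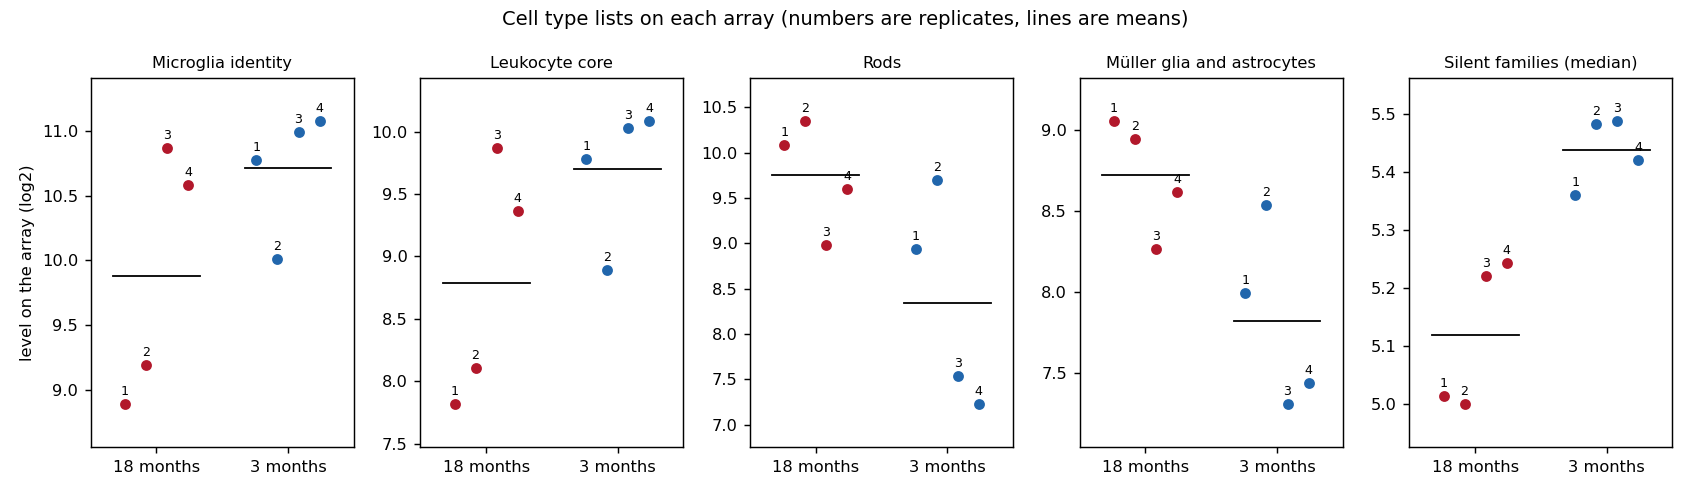
Level (log2) of 4 cell type lists, as the mean over members, and of the silent gene families, as the median, on each array at 18 and at 3 months. Points are arrays with their replicate number and lines are means of 4. The silent families lay lower on all 4 arrays at 18 months (5.00 to 5.24) than on all 4 at 3 months (5.36 to 5.49), while the ages overlapped in the 4 cell type lists.

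Of 16755 features 466 rose (2.78%) and 3068 fell (18.3%) at 18 months, 3534 in all (21.1%). The rises were mostly bright and large. Of the 466 rises, 344 (73.8%) were among the 5585 brightest features, with a mean level over 16 arrays above 7.71, and 309 were of at least 1 on the log2 scale, with a median of 1.29. The falls were mostly dim and small. Of the 3068 falls, 197 (6.42%) were among the brightest features and 1588 (51.8%) among the 5585 dimmest, at a mean level of up to 6.50, and 56 were of at least 1, with a median of −0.46. Both counts rested on single arrays. They were 0 and 0 without 3-month replicate 4 (6035 features at an unadjusted p under 0.05 in limma), 3 and 7 without 3-month replicate 3, 1 and 2 without 18-month replicate 1, and 0 and 1 without 18-month replicate 2. They were 407 rises and 846 falls without 3-month replicate 2 and 1037 rises and 4078 falls without 18-month replicate 3. With 18-month replicates 1 and 2 averaged to 1 sample they were 1 and 2. A fit to the 8 arrays alone, without the spread of the other ages, called 3 rises, in Spa17, Pla2g5 and Pcdhb22, the last named after its value was seen, and 0 falls (5865 features at an unadjusted p under 0.05 in limma).

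**Figure D2:**
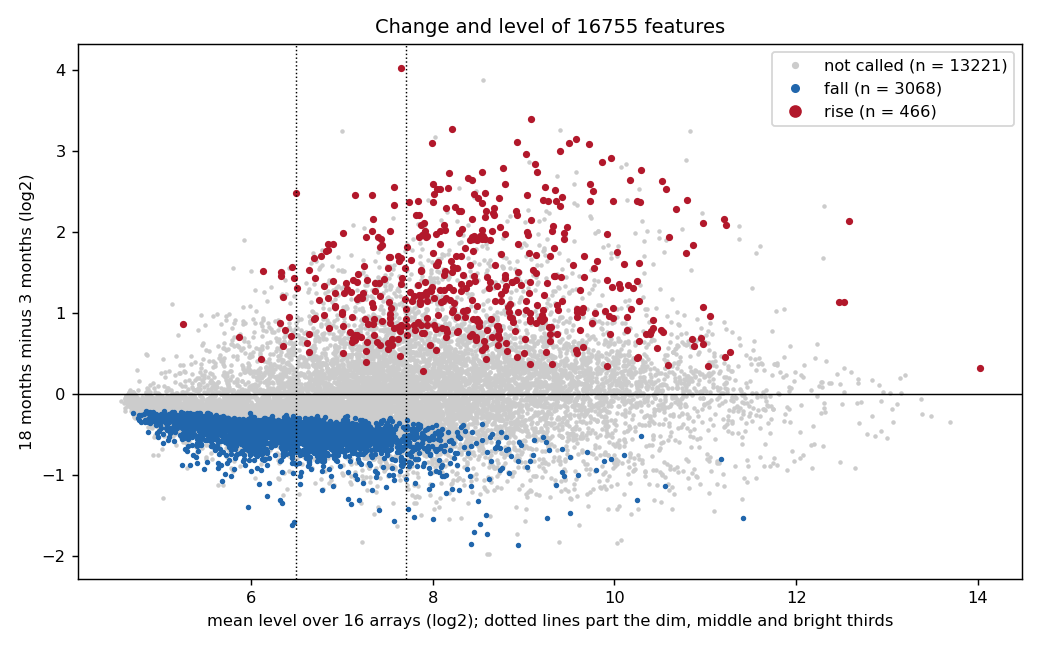
Change (18 months minus 3 months, log2) against mean level over 16 arrays (log2) for each of 16755 features, with rises in red, falls in blue and the rest in grey. The 3068 falls form a narrow band just below 0 that thins out among bright features, and the 466 rises spread up to 4.03, mostly among bright features.

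The band of dim falls was shared by genes that microglia are not known to express. Olfactory receptors, vomeronasal receptors, hair keratin-associated proteins, beta-defensins and trace amine receptors are families of the nose, skin and mucosa, and 847 features carried their symbols, 747 of them (88.2%) dim. Their median level was 5.01, 5.00, 5.22 and 5.24 on the 4 arrays at 18 months and 5.36, 5.48, 5.49 and 5.42 on those at 3 months, so the ages did not overlap. Of these features 833 (98.3%) had a lower fitted level at 18 months, 183 (21.6%) fell and 0 rose in limma, where 402 had an unadjusted p under 0.05, and their median change was −0.29. Among the 719 olfactory receptors, 156 fell. Over all features 11440 (68.3%) had a lower fitted level, and the median change was −0.21. All dim features together had a median change of −0.27, with 15 rises and 1588 falls, against a median of 0.08 among the brightest.

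When each array was centred on the silent families, 186 features rose (1.11%) and 6 fell (0.0358%). Of these, 139 rises and 6 falls had also been called on the deposited scale, so nearly all of the 3068 falls had no call on the centred scale. The falls called on both scales were Bdkrb1, Nid2, Gprc5d and 3 other features. Median centring called 46 rises (0.275%) and 54 falls (0.322%), quantile normalization 14 (0.0836%) and 24 (0.143%), and a fit without the dimmest features 8 and 4. After centring on the silent families the median change of all features was 0.13, against −0.21 on the deposited scale. The centring added the same positive amount to every change, which favours calls of rises over falls. Changes below are on the deposited scale, and the change after this centring, called the centred change, is added where it matters.

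The largest falls among dim genes without overlap are given by array. They were chosen for their size, so exceeding the shift of the silent families follows from the choice. Of all dim features 4 fell on the centred scale. Olfr250, an olfactory receptor gene, had levels of 5.39, 5.37, 6.11 and 5.94 at 18 months and of 6.88, 6.76, 6.68 and 7.49 at 3 months, a change of −1.25 (SE 0.219, adjusted p = 0.0266), or −0.92 on the centred scale (adjusted p = 0.052). Hrh2, the histamine H2 receptor gene, had 5.31, 5.36, 6.14 and 5.93 at 18 months and 8.12, 6.41, 6.75 and 7.89 at 3 months, a change of −1.61 (adjusted p = 0.0335). Neither overlapped between ages. Genes of lymphocytes and natural killer cells were also dim. Of 20 lymphocyte genes, 14 of them dim, 8 fell (40.0%, against 28.4% of dim features and 18.3% of all) and 0 rose, with a median change of −0.48, and the list's mean level was 5.63 to 6.08 at 18 months and 6.24 to 6.44 at 3 months. On the centred scale the median was −0.14 with 0 falls. Falls on the deposited scale included the T cell signalling gene Zap70 (−0.53, and −0.20 with an adjusted p of 0.085 on the centred scale), the co-receptor gene Cd8a (−0.49 and −0.16) and Cd3e (−0.48 and −0.15).

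The 3 largest rises without overlap among dim features differed between arrays of the same age. Erc1, a scaffold gene of the secretory active zone, had 8.46, 7.99, 5.77 and 8.61 at 18 months and 5.04, 5.22, 5.33 and 5.32 at 3 months (change 2.48, adjusted p = 0.0373). Ust, a uronyl sulfotransferase gene, had 7.95, 8.52, 6.37 and 6.53 at 18 months and 5.61 to 5.87 at 3 months (1.57, adjusted p = 0.0323), and Lrch2, a leucine-rich repeat gene, had 7.63, 7.42, 5.71 and 7.77 against 5.52 to 5.70 (1.52, adjusted p = 0.0349). In Erc1 and Lrch2 replicate 3 stood close to the 3-month arrays, and the rise lay in the other 3.

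No microglia identity gene was called at 18 months. Of the 44, 0 rose and 0 fell in limma, against 2.78% and 18.3% of all features, and 4 had an unadjusted p under 0.05. Their median change was nevertheless −0.90, against −0.21 over all features, with 43 of 44 at a lower fitted level. The lower values came from 2 arrays. Cx3cr1, the fractalkine receptor gene, had levels of 10.35, 11.04, 12.77 and 12.41 at 18 months and of 12.73, 12.05, 12.71 and 12.72 at 3 months. Tmem119, a membrane protein gene specific to microglia in the brain, had 7.55, 7.54, 10.13 and 10.15 at 18 months and 9.93, 9.68, 10.38 and 10.50 at 3 months. P2ry12, the ADP receptor gene of process motility, had 9.93, 10.22, 12.05 and 11.74 at 18 months and 12.21, 11.20, 11.94 and 12.12 at 3 months. On 18-month replicates 3 and 4 all 3 genes were within or above the range of the 3-month arrays, and on replicates 1 and 2 all 3 were below it. Itgam, which encodes the CD11b integrin chain, followed the same order, with 7.68, 8.00, 10.31 and 9.73 at 18 months and 10.21, 8.53, 10.36 and 10.80 at 3 months. Without 18-month replicates 1 and 2 the changes were 0.04 for Cx3cr1, 0.02 for Tmem119, 0.02 for P2ry12 and 0.05 for Itgam, and the median of the list was −0.08. The identity genes with the smallest p were Rgs10, a regulator of G protein signalling (−0.96, adjusted p = 0.0807), and P2ry6, the UDP receptor gene linked to phagocytosis (−1.23, adjusted p = 0.09).

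Among 74 core leukocyte genes 0 rose and 5 fell (6.76%, against 18.3% of all features). The median change was −0.91, and −0.04 without 18-month replicates 1 and 2, and 17 members had an unadjusted p under 0.05. Lsp1, a leukocyte actin-binding protein gene, had levels of 8.02, 7.88, 9.77 and 9.47 at 18 months and of 9.98, 10.11, 10.69 and 10.21 at 3 months (change −1.46, SE 0.489, adjusted p = 0.0479). Alox5ap, whose product activates leukotriene synthesis, had 9.49, 9.72, 11.88 and 11.18 at 18 months and 11.82, 12.06, 12.16 and 12.34 at 3 months (−1.53, adjusted p = 0.0499). Lsp1 did not overlap between ages, while Alox5ap did on 18-month replicate 3. Falls were also called in Ncf4, a subunit gene of the NADPH oxidase (−1.42), the integrin gene Itgal (−0.61) and Tal1, a haematopoietic transcription factor gene (−0.44), and Itgal alone of the 3 had no overlap. None of the 5 was called on the centred scale, where their changes ran from −1.20 for Alox5ap to −0.10 for Tal1, nor without 18-month replicates 1 and 2.

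PU.1, the transcription factor encoded by Spi1, is needed for the microglial lineage and binds purine-rich sites around a GGAA core. The promoters of Tal1 and of Myo1f, an unconventional myosin gene of leukocytes (change −1.72, adjusted p = 0.0552), are shown because they have the smallest p among microglia-list genes with a promoter in the RefSeq table. They are from build GRCm38.p6, the plus strand, at chr4:115056176-115056475 for Tal1 and chr17:33555457-33555756 for Myo1f, and capitals mark the letters GAGGAA, searched on both strands.
Tal1: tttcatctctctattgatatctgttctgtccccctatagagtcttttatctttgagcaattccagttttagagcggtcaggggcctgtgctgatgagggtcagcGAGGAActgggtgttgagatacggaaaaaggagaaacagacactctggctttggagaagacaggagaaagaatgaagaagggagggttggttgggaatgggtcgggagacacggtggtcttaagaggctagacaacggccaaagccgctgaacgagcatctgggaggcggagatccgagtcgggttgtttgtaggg
Myo1f: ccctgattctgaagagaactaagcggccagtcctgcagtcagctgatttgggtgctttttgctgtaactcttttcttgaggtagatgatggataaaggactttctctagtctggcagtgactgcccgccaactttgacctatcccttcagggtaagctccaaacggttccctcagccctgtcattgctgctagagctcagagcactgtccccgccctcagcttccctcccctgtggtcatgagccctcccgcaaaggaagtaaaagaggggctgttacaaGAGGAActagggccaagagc
Each held 1 match. Of the 59 core genes with a listed promoter 38 had at least 1 match, against 8446 of 27025 genes (31.3%) in the whole table, 12 of 36 rod genes and 18 of 41 Müller glia genes. A match is a description of the letters and not a measured binding site.

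Genes of innate sensing held 1 rise. Of 30 pattern receptor and inflammasome genes 1 rose (3.33%, against 2.78% of all features) and 3 fell (10.0%, against 18.3%), with a median change of −0.62 and 27 at a lower fitted level. On the centred scale 1 rose and 0 fell. Myd88, the adaptor gene shared by most Toll-like receptors, had levels of 7.57, 8.45, 9.00 and 8.18 at 18 months and of 6.98, 6.42, 7.46 and 7.21 at 3 months, a rise of 1.28 (SE 0.363, adjusted p = 0.0334). All 4 arrays at 18 months were above all 4 at 3 months, and its highest value was on replicate 3, the 18-month array highest in microglia genes. The change was 1.57 without 18-month replicates 1 and 2 and 1.60 without 3-month replicates 3 and 4, with neither called. On the centred scale Myd88 was called (1.62, adjusted p = 0.048). It was not called after median centring, after quantile normalization or without 3-month replicate 4.

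Naip2, an inflammasome receptor gene for bacterial proteins, had levels of 6.77, 6.85, 8.30 and 8.26 at 18 months and of 9.32, 9.15, 9.29 and 9.80 at 3 months (−1.85, SE 0.618, adjusted p = 0.0484). Its values on 18-month replicates 3 and 4 were below all 3-month arrays, and the change was −1.11 without replicates 1 and 2 (adjusted p = 0.53). Tlr8, an RNA-sensing Toll-like receptor gene, had 5.42, 5.44, 5.71 and 5.72 at 18 months and 6.97, 6.14, 5.82 and 7.82 at 3 months (−1.11, adjusted p = 0.042), and Nod2, a sensor gene for bacterial peptidoglycan, also fell (−0.39, and −0.06 on the centred scale). In 3-month replicate 3 Tlr8 was close to the 18-month levels.

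Cytokine genes gave 1 rise (3.23%) and 5 falls (16.1%) among 31, near the 2.78% and 18.3% of all features, with a median change of −0.45, and 0 of either on the centred scale. Tnfsf13b, the gene of BAFF, a survival factor of B cells, had levels of 6.78, 7.10, 8.30 and 8.53 at 18 months and of 9.73, 8.90, 9.11 and 9.36 at 3 months, a change of −1.60 (SE 0.440, adjusted p = 0.032). All 18-month arrays were below all 3-month arrays, and the change was −0.86 without 18-month replicates 1 and 2 and −1.64 without 3-month replicates 3 and 4, with neither called. Tnfrsf13b, which encodes the BAFF and APRIL receptor TACI (−0.69), the interleukin 12 subunit gene Il12a (−0.49) and Il34, a ligand gene of the CSF1 receptor made by neurons (−0.35), also fell. The centred changes of these 3 were −0.36, −0.16 and −0.02. The fifth fall was in the tumour necrosis factor receptor gene Tnfrsf1a (−0.89, adjusted p = 0.0396), which was named after its value was seen. The rise was in Tgfb2, a transforming growth factor gene also known from Müller glia, with 10.19, 9.87, 8.41 and 9.49 at 18 months and 7.99, 8.95, 6.14 and 6.21 at 3 months (2.17, adjusted p = 0.0392). It was highest on the arrays highest in rod and Müller genes, and without 3-month replicates 3 and 4 its change was 1.02.

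Phagocytosis and lysosome genes gave 2 rises (4.76%) and 3 falls (7.14%) among 42, against 2.78% and 18.3% of all features, with a median change of −0.35. Cd36, a scavenger receptor gene for oxidised lipids, had levels of 9.09, 8.75, 9.36 and 8.43 at 18 months and of 8.20, 5.50, 5.91 and 8.11 at 3 months, a rise of 1.98 (SE 0.600, adjusted p = 0.0383). No 18-month array was as low as the highest 3-month array, and the 3-month arrays fell into 2 levels. Gla, the lysosomal alpha-galactosidase gene, had 7.41, 7.44, 6.53 and 6.92 at 18 months and 5.59, 5.92, 6.03 and 6.84 at 3 months (0.98, adjusted p = 0.032), with overlap through 3-month replicate 4. The falls were in Tfeb, a transcription factor gene of lysosome formation (−0.67), the scavenger receptor gene Marco (−0.51) and the sialidase gene Neu1 (−0.80), and their centred changes were −0.34, −0.18 and −0.47, with none called.

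In the remaining immune groups the falls made up 0% to 21.1% of each list, where 18.3% of all features fell, and the rises up to 5.26%, where 2.78% rose. Of 11 MHC genes 2 fell, the peptide-loading genes Tapbp (8.01 at most at 18 months and 8.40 at least at 3 months, change −0.78) and Tap2 (−0.52), with a median of −0.64. Of 22 interferon response genes 1 rose, Oasl2, a gene of the oligoadenylate synthetase family, with levels of 8.60, 8.62, 8.82 and 8.72 at 18 months and of 8.16, 7.80, 8.18 and 7.81 at 3 months (0.70, SE 0.206, adjusted p = 0.0358). The ages did not overlap in Oasl2, and on the centred scale it was also called (1.04, adjusted p = 0.03). Oasl2 was not called after median centring or quantile normalization. Nor was it called without 3-month replicates 3 and 4 or without 18-month replicates 1 and 2. The list's median was −0.28. Of 30 chemokine genes 2 fell, the receptor genes Cxcr3 (−0.74) and Ccr7 (−0.54), both dim. Of 19 complement genes 1 rose, Clu, a clusterin gene also expressed by Müller glia (2.28), and 4 fell, C1ra (−0.38), C6 (−0.31), Hc (−0.29) and C9 (−0.26). These 4 were dim, and on the centred scale 3 of them were above 0. Of 21 genes of disease-associated microglia 0 rose and 0 fell in limma, with 1 at an unadjusted p under 0.05, a median of −0.29 and Trem2, a lipid receptor gene, at −1.19 (adjusted p = 0.128).

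None of the markers of other blood cells rose. Of 13 neutrophil genes, 9 of them dim, 5 fell (38.5%, against 28.4% of dim features and 18.3% of all; 0 on the centred scale) and 0 rose, among the falls the myeloperoxidase gene Mpo (−0.62) and the chemokine receptor gene Cxcr2 (−0.72), and the list's mean level was 5.76 to 6.41 at 18 months and 6.17 to 6.71 at 3 months. Of 13 genes of monocytes and perivascular macrophages, 3 of them dim, 0 rose and 0 fell in limma, with 3 at an unadjusted p under 0.05 and a median of −0.42. Of 5 erythroid genes, 3 of them dim, 2 fell, among them the anion exchanger gene Slc4a1 (−0.54, and −0.21 on the centred scale).

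**Figure D3:**
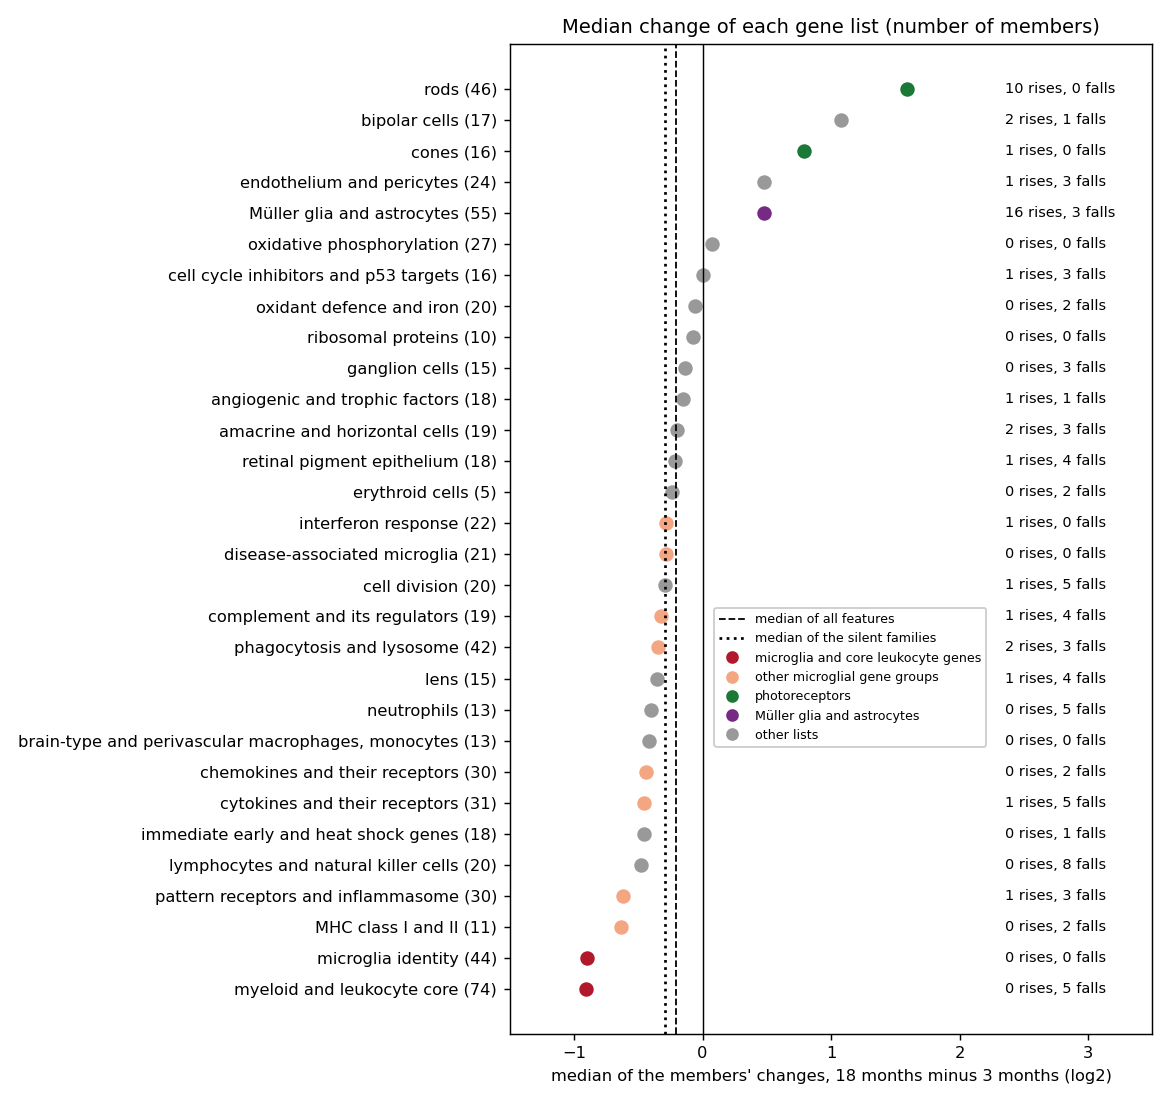
Median change (18 months minus 3 months, log2) of each of 30 gene lists, with the number of members in brackets and the number of rises and falls at the right. Vertical lines mark 0, the median of all features (−0.21) and that of the silent families (−0.29). The 2 microglia lists lie lowest (−0.91 and −0.90) with 5 falls between them, and the rod list lies highest (1.59) with 10 rises.

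Rod genes were the group with the highest median change. Of 46 rod genes 10 rose (21.7%, against 2.78% of all features) and 0 fell, 45 had a higher fitted level, 34 had an unadjusted p under 0.05, and the median change was 1.59. The rises covered the phototransduction cascade and the photoreceptor matrix. Gnat1, the alpha subunit gene of rod transducin, had levels of 13.65, 13.67, 12.69 and 13.29 at 18 months and of 12.53, 13.21, 10.10 and 8.90 at 3 months (2.14, SE 0.706, adjusted p = 0.0466). Pde6b, a subunit gene of the phosphodiesterase that transducin activates, had 12.06, 12.23, 10.89 and 11.39 at 18 months and 10.60, 11.38, 7.77 and 7.21 at 3 months (2.40, adjusted p = 0.0391). The 2 lowest arrays were 3-month replicates 3 and 4 in both genes, and 3-month replicates 1 and 2 came close to or into the range at 18 months.

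Impg1 and Impg2, which encode proteoglycans of the interphotoreceptor matrix, rose by 2.74 and 2.46, the guanylate cyclase gene Gucy2f by 2.36, the photoreceptor kinase gene Grk1 by 2.02, Unc119, which carries transducin to the outer segment, by 1.45, the potassium channel subunit gene Kcnv2 by 1.15 and the transducin beta subunit gene Gnb1 by 1.14. Samd7, a transcriptional repressor gene of rods, had the smallest p of the list, with 9.86, 10.05, 8.12 and 9.73 at 18 months and 8.42, 7.42, 7.27 and 6.95 at 3 months (1.92, SE 0.476, adjusted p = 0.0282). Each of the 10 overlapped between ages through 18-month replicate 3. The size of these rises rested on 3-month replicates 3 and 4. The list had 0 rises, with medians of 1.04 to 1.48, without 3-month replicate 4, 18-month replicate 1 or 18-month replicate 2, and 0 rises, with medians of 1.51 to 1.92, on the centred scale, after median centring and after quantile normalization. Without 3-month replicates 3 and 4 the median of the rod list was 0.39 with 0 rises, and the changes were 1.52 for Samd7, 0.46 for Gnat1 and 0.65 for Pde6b, none of them called. Without 18-month replicates 1 and 2 the median was 0.99, and within the array numbers 9 to 16, which hold the 4 arrays of 18 months and 3-month replicates 3 and 4, it was 2.73 with 24 rises, where 0.991% of all features rose. With 18-month replicates 1 and 2, 24-month replicate 1 and 3-month replicates 3 and 4 all left out it was −0.07.

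Crx is the homeobox factor that drives photoreceptor genes, and TAATCC is a form of its motif. The promoters of Samd7 and Unc119 are shown as the rod genes with the smallest p in the table, both from RefSeq on build GRCm38.p6 and the plus strand, at chr3:30746043-30746342 for Samd7 and chr11:78343245-78343544 for Unc119, with any match on either strand in capitals.
Samd7: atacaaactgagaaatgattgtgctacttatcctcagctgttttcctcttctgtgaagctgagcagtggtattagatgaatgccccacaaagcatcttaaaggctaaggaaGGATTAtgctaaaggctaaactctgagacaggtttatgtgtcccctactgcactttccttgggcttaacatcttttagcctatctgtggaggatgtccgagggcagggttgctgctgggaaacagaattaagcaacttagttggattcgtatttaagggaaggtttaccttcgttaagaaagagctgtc
Unc119: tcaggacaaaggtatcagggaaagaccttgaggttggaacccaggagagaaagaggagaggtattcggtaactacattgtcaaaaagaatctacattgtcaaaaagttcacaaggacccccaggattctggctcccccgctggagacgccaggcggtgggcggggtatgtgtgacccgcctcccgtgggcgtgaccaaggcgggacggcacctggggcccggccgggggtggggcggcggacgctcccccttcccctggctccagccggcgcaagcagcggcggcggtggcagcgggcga
Samd7 held 1 match, as the reverse complement, and Unc119 held 0 in the window shown, the one its table lists first of 3. Of 36 rod genes listed there 14 had at least 1 match, against 2199 of 27025 genes (8.14%) 5 of 41 Müller glia genes and 3 of 59 core leukocyte genes. For ACAATG, a form of the motif of SOX factors such as Sox2, 3 of 41 Müller glia genes had a match, against 3863 of 27025 genes, and the listed promoters of Slc1a3 and Sox2 held 0. These are letters in a window and not measured binding.

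Lists of other retinal neurons held fewer rises. Over all features 2.78% rose and 18.3% fell. Rises made up 6.25% of the cone, 11.8% of the bipolar, 10.5% of the amacrine and 0% of the ganglion list. Falls made up 0%, 5.88%, 15.8% and 20% of these lists. Centred on the silent families, each of these lists had 0 rises and 0 falls. Of 16 cone genes 1 rose, the green opsin gene Opn1mw (1.60), with a median of 0.79. Of 17 bipolar cell genes 2 rose, Otx2, a homeobox gene shared with photoreceptors (2.85), and the cation channel gene Trpm1 (1.28), and 1 fell, Nyx (−0.30, and 0.04 on the centred scale). Otx2 had levels of 10.85, 10.94, 9.07 and 9.68 at 18 months and of 6.76, 9.62, 6.53 and 6.24 at 3 months, so 3-month replicate 2 was the exception at 3 months. Of 19 amacrine and horizontal cell genes 2 rose, the homeobox genes Prox1 (1.94) and Pax6 (2.26), and 3 fell, among them the dim acetyltransferase gene Chat (−0.45). Of 15 ganglion cell genes 0 rose and 3 fell, Isl2 (−0.49), Pou4f1 (−0.43) and the melanopsin gene Opn4 (−0.53), with a median of −0.13.

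Genes of Müller glia and astrocytes held more rises than any other list. Of 55 members 16 rose (29.1%, against 2.78% of all features) and 3 fell, 30 had an unadjusted p under 0.05, and the median change was 0.48. Slc1a3, the glutamate transporter gene of Müller glia, had levels of 10.56, 10.58, 9.30 and 10.17 at 18 months and of 8.36, 8.77, 6.78 and 8.06 at 3 months, a rise of 2.16 (SE 0.472, adjusted p = 0.0266). Sox2, a transcription factor gene of Müller glia and progenitors, had 10.77, 10.86, 8.89 and 9.29 at 18 months and 7.41, 8.26, 6.29 and 6.67 at 3 months (2.79, SE 0.654, adjusted p = 0.0269). In both all 4 arrays at 18 months lay above all 4 at 3 months, as they did in 6 of the 55 members, against 2.54% of all features.

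The other rises included the channel genes of water and potassium buffering at the Müller endfeet. The aquaporin gene Aqp4 had 10.53, 10.36, 8.73 and 9.57 at 18 months and 7.91, 8.42, 7.51 and 7.43 at 3 months (1.98, adjusted p = 0.0273), and the potassium channel gene Kcnj10 had 8.57, 7.97, 7.28 and 7.12 at 18 months and 6.93, 6.85, 6.26 and 5.87 at 3 months (1.26, adjusted p = 0.0282). Neither overlapped between ages. The caveolin gene Cav1 rose by 3.15, the carbonic anhydrase gene Car2 by 2.92, the pleiotrophin gene Ptn by 2.39, the lipid transporter gene Abca8b by 2.22, the retinaldehyde-binding protein gene Rlbp1 by 2.19 and the acyl-CoA-binding protein gene Dbi by 1.14. The 3 falls were dimmer genes, the amino acid transporter gene Slc7a10 (−0.47), the growth factor receptor gene Fgfr3 (−0.50) and the lipid metabolism gene Acsbg1 (−0.39), with centred changes of −0.14, −0.16 and −0.06.

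The Müller rises were also given without the arrays that stand apart. The list's median was 0.30 without 3-month replicates 3 and 4, 0.27 without 18-month replicates 1 and 2 and 0.15 without all of these and 24-month replicate 1, with 0 rises in each, and on the centred scale 2 members rose and 0 fell, with a median of 0.81. Without 3-month replicates 3 and 4 the changes were 1.58 for Slc1a3, 2.11 for Sox2, 1.63 for Aqp4 and 0.85 for Kcnj10, and without 18-month replicates 1 and 2 they were 1.74, 1.93, 1.33 and 0.72, with none called in either fit. On the centred scale Slc1a3 (2.49, adjusted p = 0.044) and Kcnj10 (1.59, adjusted p = 0.049) were called. Large rises were also found in bright genes of no list. Pla2g5, a secreted phospholipase gene, had 10.23, 10.29, 9.43 and 9.86 at 18 months and 6.52, 6.91, 6.59 and 6.69 at 3 months (3.28, adjusted p = 0.0266). Etnppl, a phospholyase gene, rose by 3.11, Stk39, which encodes a kinase that regulates ion cotransporters, by 3.11 and Ndrg2, known from astrocytes, by 3.08. The 3-month arrays of Pla2g5 lay between 6.52 and 6.91, and its change was 3.24 without 3-month replicates 3 and 4.

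Vascular, lens and pigment epithelium genes were mixed. Falls made up 12.5%, 26.7% and 22.2% of these lists, against 18.3% of all features and 28.4% of dim ones. Rises made up 4.17%, 6.67% and 5.56%, against 2.78% of all features. Of the 15 lens genes 9 were dim. Centred on the silent families, each of these lists had 0 rises and 0 falls. Of 24 endothelium and pericyte genes 1 rose, the VEGF receptor gene Kdr (2.24), which Müller glia and neurons of the retina also express, and 3 fell, Eng (−0.66), Tie1 (−0.49) and Cspg4 (−0.47). Of 15 lens genes 1 rose, Cryab, a small heat shock protein gene also found in glia (1.99), and 4 fell, among them Cryaa (−0.63). Of 18 pigment epithelium genes 1 rose, Rlbp1, which is also a Müller gene, and 4 fell, among them the melanosome gene Pmel (−0.48) and the channel gene Best1 (−0.40).

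**Figure D4:**
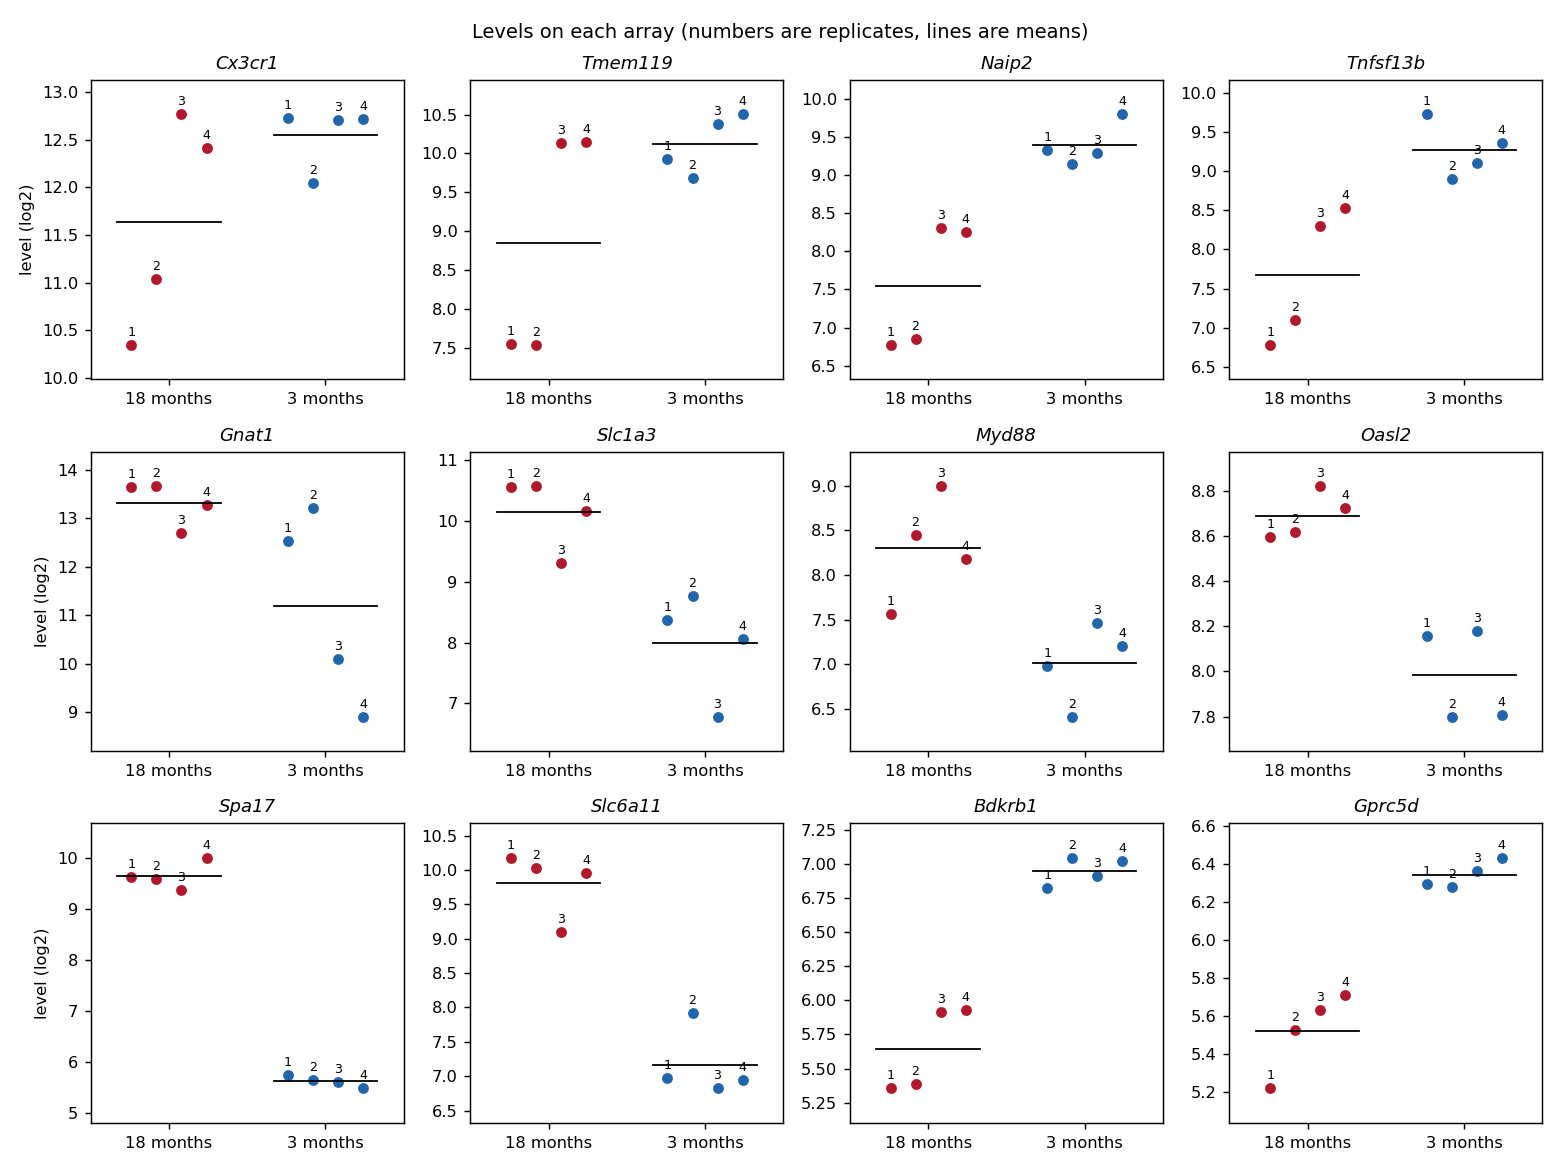
Levels (log2) of 12 genes on each of the 4 arrays at 18 months and the 4 at 3 months, with replicate numbers at the points and lines at the means of 4. Cx3cr1 and Tmem119 are low on 18-month replicates 1 and 2, Gnat1 is low on 3-month replicates 3 and 4, and Spa17, Bdkrb1 and Gprc5d have narrow groups that lie apart.

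A small set of genes was called whichever of 3 scalings was used. These 26 features, 13 rises and 13 falls, were called on the deposited values, after median centring and after quantile normalization, and the 12 of each with the smallest p are named here. All 24 had no overlap between ages, against 24.5% of all features, and choosing them by the smallest p favours this. Spa17, a gene of sperm flagella and motile cilia, had levels of 9.63, 9.59, 9.38 and 10.00 at 18 months and of 5.75, 5.66, 5.60 and 5.49 at 3 months (4.03, SE 0.499, adjusted p = 0.0101). At 18 months, replicate 3, the array highest in microglia genes, was the lowest of the 4, and all 4 were above every 3-month array. Slc6a11, a GABA transporter gene, had 10.18, 10.03, 9.10 and 9.95 at 18 months and 6.98, 7.92, 6.82 and 6.95 at 3 months (2.65, SE 0.382, adjusted p = 0.0163). At both ages its arrays ranked as in the Müller glia list. That list's mean levels were 9.06, 8.94, 8.27 and 8.62 at 18 months and 8.00, 8.54, 7.31 and 7.44 at 3 months. The part of Müller glia in the values of Slc6a11 was not tested.

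The other rises were Zfp507 (1.71) and Zfp27 (0.94), zinc finger genes, Dld, a subunit gene of mitochondrial dehydrogenases (1.40), Efna5, an ephrin ligand gene (1.38), Armcx3, a gene of mitochondrial transport (1.36), Oxr1, a gene of oxidation resistance (1.33), Arhgef12, a guanine nucleotide exchange factor gene (1.29), Atp2b4, a calcium pump gene (1.25), Usp47, a deubiquitinase gene (0.94), and Mttp, a lipid transfer gene (0.43). Dld had 10.99, 11.05, 10.71 and 10.44 at 18 months and 8.90, 9.28, 9.68 and 9.71 at 3 months, and Armcx3 had 10.71, 10.73, 10.19 and 10.35 against 9.32, 9.24, 9.29 and 8.70. At 3 months Dld was higher on replicates 3 and 4, where the rod list was lowest. At 18 months it was higher on replicates 1 and 2, where the rod list was highest. Without 3-month replicates 3 and 4 the change of Dld was 1.71, and the part of rods in its values was not tested. All 12 rises were also called when arrays were centred on the silent families, a centring that makes every rise larger.

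Bdkrb1, the bradykinin B1 receptor gene, had levels of 5.35, 5.38, 5.92 and 5.93 at 18 months and of 6.82, 7.04, 6.91 and 7.02 at 3 months, a change of −1.31 (SE 0.151, adjusted p = 0.00889), or −0.97 on the centred scale (adjusted p = 0.0077). Gprc5d, an orphan receptor gene, had 5.22, 5.53, 5.63 and 5.71 at 18 months and 6.29, 6.28, 6.36 and 6.43 at 3 months (−0.82, SE 0.111, adjusted p = 0.0137). Both are dim. The other falls were the stress granule gene G3bp1 (−0.80), the serotonin receptor gene Htr6 (−0.77), the basement membrane gene Nid2 (−0.74), the exchange factor gene Arhgef40 (−0.72), the Usher syndrome scaffold gene Ush1g (−0.70), the homeobox gene Hoxc13 (−0.66), the elastase gene Cela1 (−0.62), the transcription factor gene Thap11 (−0.60), the adhesion receptor gene Adgra1 (−0.56) and Saraf, a regulator of calcium entry (−0.53). G3bp1, a bright gene, had 10.93, 10.53, 10.91 and 11.17 at 18 months and 11.54, 11.64, 11.77 and 11.78 at 3 months. Of the 12 falls, Bdkrb1, Gprc5d and Nid2 were also called on the centred scale.

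None of these genes was called in every fit. Of 28 alternatives 20 called Spa17, whose change ran from 3.47 to 4.36, and of 27 alternatives 21 called Bdkrb1, whose change ran from −1.53 to −0.97. Spa17 was not called without 3-month replicate 4, without 18-month replicate 2 or without 18-month replicates 1 and 2 together (4.07, adjusted p = 0.21), nor Bdkrb1 without 3-month replicate 4 or without that pair (−1.03, adjusted p = 0.17). With the rod and microglia list scores of each array as covariates 0 features rose and 1 fell, Bdkrb1, and 4552 features had an unadjusted p under 0.05 in limma.

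The largest falls above the dim range in no list were also described by array. Hspb3, a small heat shock protein gene, had levels of 6.70, 6.52, 8.26 and 8.34 at 18 months and of 8.71, 8.75, 9.39 and 9.13 at 3 months (−1.54, adjusted p = 0.0359). Dennd1c, a Rab activator gene, had 6.22, 6.70, 8.03 and 7.42 at 18 months and 8.03, 8.46, 8.78 and 9.15 at 3 months (−1.51, adjusted p = 0.033). Smim3, a small membrane protein gene, had 7.04, 7.03, 8.25 and 7.91 at 18 months and 8.27, 9.05, 9.28 and 8.52 at 3 months (−1.22, adjusted p = 0.0337). All 3 were lowest on the 18-month arrays that were lowest in microglia genes, and without these arrays their changes were −0.70, −0.88 and −0.70. In Ly6m, a Ly6 family gene (−1.30), 3-month replicate 2 stood at 9.80 and the other 3 at 7.23 to 7.59, and without it the change was −0.70.

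Genes of general cell processes were examined next. Of 20 cell division genes 1 rose (5%) and 5 fell (25%), against 2.78% and 18.3% of all features, with 1 rise and 0 falls on the centred scale. Ccna2, the cyclin A2 gene, had levels of 7.92, 8.06, 7.12 and 7.86 at 18 months and of 6.64, 6.67, 6.50 and 6.05 at 3 months (1.27, SE 0.280, adjusted p = 0.0266), with no overlap. Falls in the mitotic kinase genes Plk1 (−0.51) and Aurkb (−0.54), the cyclin-dependent kinase gene Cdk1 (−0.81) and the replication gene Mcm6 (−0.89) had the opposite sign. Of 16 cell cycle inhibitor and p53 target genes, called in 6.25% upward and 18.8% downward, 1 rose, the cyclin G1 gene Ccng1 (0.82, with 10.45 to 11.02 at 18 months and 9.42 to 10.33 at 3 months), and 3 fell, among them Cdkn2a, a marker gene of senescence (−0.61), the apoptosis gene Bbc3 (−0.54) and the stress gene Gadd45b (−0.34). Cdkn2a had 6.76, 6.87, 7.48 and 7.41 at 18 months and 7.47, 7.97, 7.69 and 7.84 at 3 months, and its centred change was −0.28.

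Of 20 oxidant defence and iron genes 0 rose and 2 fell (10%), against 2.78% and 18.3% of all features. The falls were in the glutathione peroxidase gene Gpx1 (−1.01, with 8.53 to 9.46 at 18 months and 9.10 to 10.37 at 3 months) and the thioredoxin gene Txn1 (−0.79). Centred on the silent families, 1 member of this list rose and 0 fell. Of 18 angiogenic and trophic factor genes 1 rose, the vascular growth factor gene Vegfa (0.68, with 9.98, 9.90, 8.97 and 9.16 at 18 months and 9.07, 9.03, 8.62 and 8.57 at 3 months), and 1 fell, the dim neurotrophic factor gene Gdnf (−0.46). Without 18-month replicates 1 and 2 the change of Vegfa was 0.24. Of 18 immediate early and heat shock genes 0 rose and 1 fell (5.56%), Egr3 (−0.60). The trophic factor list had 5.56% called in each direction. Centred on the silent families, the trophic and the immediate early list each had 0 rises and 0 falls. In 27 oxidative phosphorylation genes and 10 ribosomal protein genes 0 were called in limma, with 3 and 0 at an unadjusted p under 0.05 and medians of 0.08 and −0.07.

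The other ages gave a second look at these genes with arrays outside the comparison. These arrays were not independent of the calls, since their spread entered the same fit. Between 24 and 12 months, ages that share no array with 18 and 3 months, 0 features were called in limma and 2749 (16.4%) had an unadjusted p under 0.05. Of the 466 features that rose at 18 months 415 (89.1%) had a higher fitted level at 24 than at 12 months, against 32.2% of all features and 57.5% of the brightest ones, with a median of 0.38. Of the 3068 falls 2952 (96.2%) had a lower fitted level, against 67.8% of all features and 85.7% of the dim ones, with a median of −0.24. The silent families also had a negative median change from 12 to 24 months (−0.12). Between the same ages the median change was 0.28 in the rod list, 0.13 in the Müller glia list and −0.34 in the microglia lists. On 24-month replicate 1 the mean level was 8.59 for microglia identity genes and 10.17 for rod genes. The 12-month arrays had 9.90 to 10.98 and 8.73 to 9.75. The part of these cell types in the directions of the rises and falls was not tested. Of the 12 named rises common to the 3 scalings 11 were higher at 24 months, with Zfp27 the exception, and of the 12 named falls 11 were lower, with Saraf the exception.

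Spa17 stood at 5.62 ± 0.11 at 3 months, 6.54 ± 0.98 at 12, 9.65 ± 0.26 at 18 and 8.80 ± 1.12 at 24 months (SD, n = 4 each). The 24-month mean was 2.27 above that at 12 months (adjusted p = 0.268) and 0.85 below that at 18 months (adjusted p = 0.979), and neither was called. Bdkrb1 stood at 6.95 ± 0.10, 6.53 ± 0.18, 5.64 ± 0.32 and 6.15 ± 0.19 at 3, 12, 18 and 24 months, so the lowest level was at 18 months. Efna5 stood at 6.82 ± 0.23, 6.69 ± 0.08, 8.21 ± 0.45 and 6.97 ± 0.44, and Zfp27 at 6.35 ± 0.05, 6.77 ± 0.24, 7.29 ± 0.16 and 6.43 ± 0.37. Both were highest at 18 months, with 24 minus 18 months at −1.24 for Efna5 and −0.86 for Zfp27, and neither difference was called (adjusted p = 0.979 for both). Between 24 and 18 months 0 features were called in limma, and 432 (2.58%) had an unadjusted p under 0.05. Oasl2 stood at 7.99 ± 0.21, 8.34 ± 0.35, 8.69 ± 0.10 and 8.90 ± 0.44, and Myd88 at 7.02 ± 0.45, 8.04 ± 0.41, 8.30 ± 0.59 and 8.51 ± 0.69, with 12 minus 3 and 24 minus 3 months not called for either gene.

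**Figure D5:**
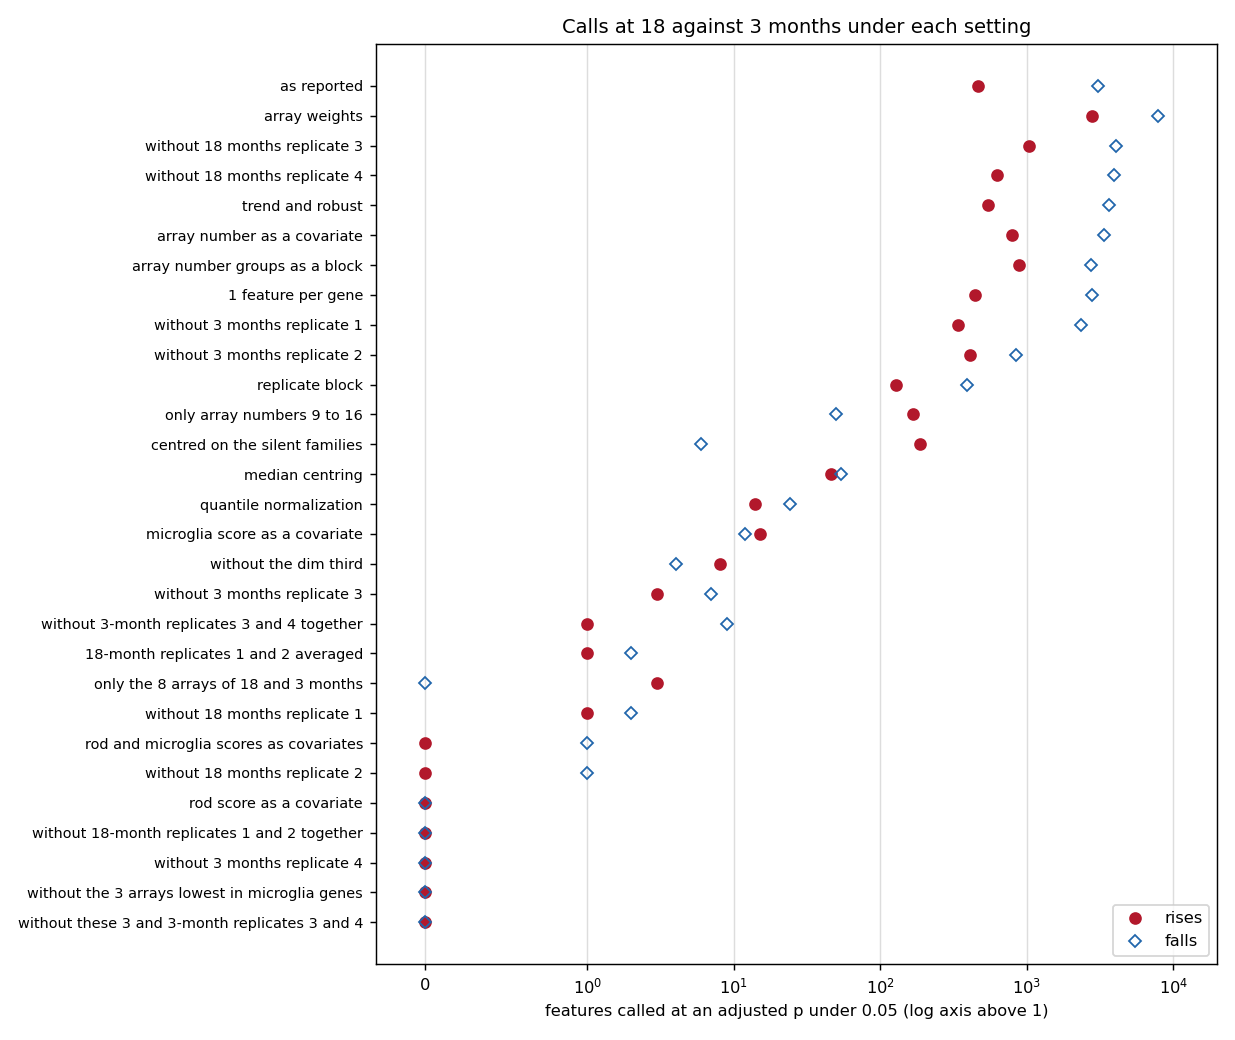
Number of features that rose (filled circles) and fell (open diamonds) at 18 against 3 months under each setting, on a log axis above 1. The counts as reported, 466 and 3068, stand at the top, and 4 settings that leave out arrays, together with the rod score as a covariate, give 0 of either.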

How the data were processed

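The authors deposited log2 values from RMA, a tool named in the submitters' processing notes. Its version and probe sets are not given in the sources. RMA subtracts background, equalises array distributions at probe level and summarises probes, so values near the floor are compressed. Array number limits the precision. Of 16755 features, 14996 had 1 symbol in the platform annotation, 1019 several and 740 none, and 14941 matched the GRCm38.p6 gene table, with 0 symbols differing. Promoters are RefSeq's on that build.

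Tests used limma 3.58.1 under R 4.3.3 (lmFit, eBayes, 1 mean per age, 16 arrays), and p-values were adjusted by Benjamini-Hochberg over all features, at a threshold of 0.05. On simulated data for 18 against 3 months, changes of 0.5, 1, 2 and 4 were placed in a small part of 16755 features. They were recovered in 20%, 46%, 88% and 100% of the features given each size, with 8 false calls among the rest. Noise was drawn for each feature separately, without shifts shared by the features of an array. Whether these rates hold for the deposited arrays, where the counts of calls rested on single arrays, was not tested. A list's level on an array is its members' mean.

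Members and lists were chosen with earlier results of these data known. Named were, of features with 1 symbol, list members called (up to 4 of smallest p in each direction, or 10 for microglia, photoreceptor and glia lists), each list's brightest member or, with no call, those of smallest p; features called under 3 scalings (up to 12 in each direction); the 5 largest rises and falls outside lists and dim features; the 3 largest among dim ones; identity genes; and genes called with both scores. The text names 135 of the 182 genes so chosen. Alternatives were 28 other fits and 3 other thresholds.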

Additional observations from a re-analysis of the deposited data

Results flagged for a closer look

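In each group of 4 arrays the gap of the outermost array to its neighbour was set against the group's range and compared with Dixon's 95% critical value. Of 338 groups tested 13 stood out, and chance flags about 1 in 20 groups. At 3 months replicate 2 was the array that stood apart in most of them. It was low in Cx3cr1 (12.05, against 12.71 to 12.73 on the others) and in the mean level of phagocytosis and lysosome genes (9.47, against 9.95 to 10.04). It was high in Otx2 (9.62, against 6.24 to 6.76), Slc6a11 (7.92, against 6.82 to 6.98), Ly6m (9.80, against 7.23 to 7.59), Cspg4 (7.11, against 6.69 to 6.74) and C9 (5.64, against 5.50 to 5.52). At 3 months replicate 4 was high in Itgal (6.76, against 6.62 to 6.63) and low in Armcx3 (8.70, against 9.24 to 9.32), and replicate 1 was low in Best1 (7.20, against 7.37 to 7.38). At 18 months replicate 3 was low in Samd7 (8.12, against 9.73 to 10.05), Stk39 (9.13, against 10.51 to 10.76) and Lrch2 (5.71, against 7.42 to 7.77).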

How the results depend on the processing

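The count of 3534 calls at 18 against 3 months (466 rises, 3068 falls) held within 1.5 times under few settings, with the rises and falls each moving as follows. It was 38 (14 rises, 24 falls) after quantile normalization, 100 (46, 54) after median centring, 192 (186, 6) centred on the silent families, 12 (8, 4) without the dim features, 3 (3, 0) with the 8 arrays alone and 10664 (2763, 7901) with array weights. It was 216 (166, 50) within array numbers 9 to 16, 3 (1, 2) with 18-month replicates 1 and 2 averaged, 0 with the rod score, 27 (15, 12) with the microglia score and 1 (0, 1) with both. It was 10 (1, 9) without 3-month replicates 3 and 4, and 0 without 18-month replicates 1 and 2, without those 2 and 24-month replicate 1 (3 arrays with low microglia scores), and without all 5 of these arrays. Leaving out single replicates gave 0 to 5115 calls, 0 to 1037 rises and 0 to 4078 falls. Rises were 886 with the number groups as a block and 796 with the number as a covariate. At an adjusted p under 0.01 there was 1 call (0 rises, 1 fall), under 0.1 there were 6298 (1133, 5165), and 365 (309, 56) were of at least 1. Between 24 and 18 months, 4776 features were called with array weights, 1 within numbers 9 to 16 and 1 without the 3 arrays lowest in microglia genes, against 0 in limma as reported. In each case the cause was not tested.

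The median of the microglia lists was 0.25 with the rod score and 0.25 without the 5 arrays, against −0.91. That of the rod list was −0.041 with the rod score, which the list itself defines, −0.050 with both scores, −0.066 without the 5 arrays, 0.39 without 3-month replicates 3 and 4 and 2.73 within numbers 9 to 16. Dim features had medians of −0.043 after quantile normalization, −0.14 after median centring and 0.062 centred on the silent families, and of −0.17 without 18-month replicates 1 and 2 or the 3 low arrays and −0.18 without the 5. The silent families had −0.095, −0.16, 0.039, −0.18 and −0.17 in these fits, and −0.58 without the dim features.

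Among single genes the centring on silent families turned Hc (0.043), C6 (0.026), C9 (0.072) and Nyx (0.036). With the rod score Cx3cr1 was 0.19, Itgam 0.71, P2ry12 0.33 and Tmem119 0.16. With the microglia score Cx3cr1 was 0.0066, Itgam 0.093 and P2ry12 0.11, while Itgam was 0.30 with both. The microglia score is taken from the identity list, which holds these genes, so a small change with it is built into the fit. Without 18-month replicates 1 and 2, or the 3 arrays, Cx3cr1 was 0.036, Itgam 0.048, P2ry12 0.023 and Tmem119 0.016, and without the 5 arrays 0.20, 0.65, 0.19 and 0.33, with Trem2 at 0.033. Over the 135 genes named, 25 of 3747 alternative values turned, 2295 lost the call and 1414 kept their side of the threshold.

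With the replicate number as a block 518 features were called (127 rises, 391 falls). The deviations of same-numbered arrays correlated at 0.09, 0.31, 0.34 and 0.13, and 18-month replicate 1 correlated best with 3-month replicate 2 (0.37), so the numbers were not taken as pairs.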
